A study of Drosophila melanogaster with 3 samples.

Results

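The vacuolar ATPase (V-ATPase) subunit genes of *Drosophila melanogaster* were examined for occupancy by CG12391, a zinc-finger protein, at their promoters. The members were chosen by name, as the protein-coding genes of the Ensembl dm6 annotation whose symbol starts with Vha, and there were 33 of them among 13968 protein-coding genes on the chromosome arms. Chromatin immunoprecipitation with sequencing (ChIP-seq) had been done with an anti-GFP antibody on whole embryos of mixed sex, aged 0 to 24 h, of a transgenic line that stably carries CG12391 fused to GFP at its C terminus. The 3 samples were biological replicates of this 1 group, all of the same line, with no second genotype, stage or treatment, so every value below describes that tagged protein in whole embryos, in which cell types cannot be told apart. Each replicate has its own peak list, a further list was called on the replicates pooled, and the last was thresholded by the irreproducible discovery rate (IDR), a measure of how alike peaks rank in replicates. Its peaks are the 8522 strongest of the pooled list, so a single peak in it can be weak or missing in a replicate. Each peak has a summit, the base at its highest point, and a signal, the authors' own measure of peak strength, which has no unit and is comparable only within a list. Lists are therefore compared by rank, where rank 1 is the highest signal among the peaks on the chromosome arms. These were 29978 in replicate 1 and 30000 in each other replicate and in the pooled list. A gene is called bound when a summit of the IDR-thresholded list lies within 500 bp of any of its transcription start sites (TSSs).

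The V-ATPase is a rotary proton pump. Its cytoplasmic V1 sector, made of subunits A to H, hydrolyses ATP and turns a central stalk, and its membrane V0 sector, made of subunits a, c, c'', d and e, carries protons across the membrane through the rotating ring of c subunits. It acidifies lysosomes, endosomes and secretory vesicles in nearly all cells, and in insects it also energises the plasma membrane of epithelia such as the Malpighian tubule. In the fly most subunits are encoded by a gene that is broadly expressed, and many have further copies with expression restricted to a tissue, often the testis. Expression was not measured in these samples, so the class of each gene is background knowledge: 14 genes were classed as broadly expressed, 15 as tissue-restricted, and 4 were left without a class because their breadth is less certain (Vha68-1, VhaM9.7-a, VhaM9.7-c and VhaAC45RP). The classes given to Vha16-5, Vha100-4, Vha100-5, VhaM9.7-b and VhaM9.7-d are also less certain than those of the other genes. Without these 5 genes 11 of 13 broadly expressed and 2 of 11 restricted genes were bound by the definition above.

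CG12391 was found at the promoters of most broadly expressed subunit genes and of few of their restricted paralogues. Of the 33 Vha genes 17 were bound, or 51.5%, against 34.4% of all protein-coding genes. Of the broadly expressed genes 11 of 14 were bound (78.6%), of the restricted genes 3 of 15 (20%), and of the genes without a class 3 of 4. The broadly expressed share thus lay above that of all genes and the restricted share below it. The difference between classes was not tested, since genes are not replicates and 3 replicates of 1 group allow no exact test below p = 0.25.

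The same order of classes was found in each replicate. In the strongest 8522 peaks of each replicate, a number equal to the length of the IDR-thresholded list, summits lay at 10 broadly expressed and 3 restricted genes in replicate 1, at 11 and 3 in replicate 2, and at 10 and 2 in replicate 3. The genes counted were not the same in each. Replicate 1 included Vha14-1 (rank 6418) and replicate 2 included VhaM9.7-b (rank 992), broadly expressed genes that were not bound. Over all Vha genes the counts were 15, 17 and 14, beside 35.2%, 32.7% and 35.2% of all protein-coding genes. The broadly expressed share was 73.8% ± 4.12 (SD, n = 3) and the restricted share 17.8% ± 3.85 (SD, n = 3), and the replicates of the classes did not overlap. All protein-coding genes gave 34.4% ± 1.43 (SD, n = 3).

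**Figure D1:**
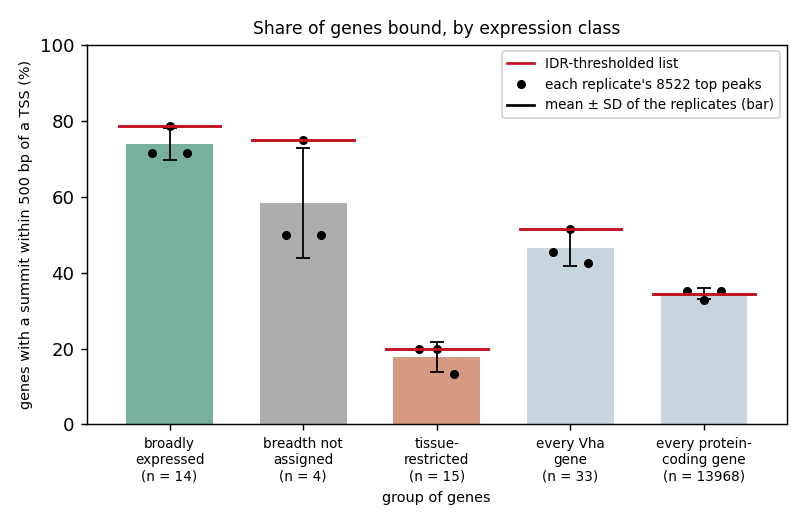
Share of genes with a summit within 500 bp of a TSS (vertical axis, percent) for the classes of Vha genes and for all protein-coding genes (horizontal axis). Points are the replicates' 8522 strongest peaks, bars and error bars their mean ± SD, and red lines the IDR-thresholded list; broadly expressed genes lie at 71.4% to 78.6% in every replicate and restricted genes at 13.3% to 20%.

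The longer lists, which include weaker peaks, gave the same order. The pooled list holds 30000 peaks, and in it 21 of the 33 genes had a summit at a TSS, beside 52.1% of all genes. These were 13 of the 14 broadly expressed genes, 5 of the 15 restricted genes and 3 of the 4 without a class. In the whole replicate lists 20, 21 and 22 Vha genes had a summit, beside 53.8%, 51.4% and 55% of all genes in replicates 1, 2 and 3. No summit in any list lay at the TSS of 9 restricted genes (Vha68-3, Vha36-2, Vha14-2, Vha100-3, Vha100-4, Vha100-5, Vha16-2, Vha16-4 and VhaM9.7-d), whereas every broadly expressed gene had a summit in at least 1 list. The nearest pooled summit of these 9 genes lay between 1273 and 64493 bp from a TSS, with a median of 5170 bp.

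**Figure D2:**
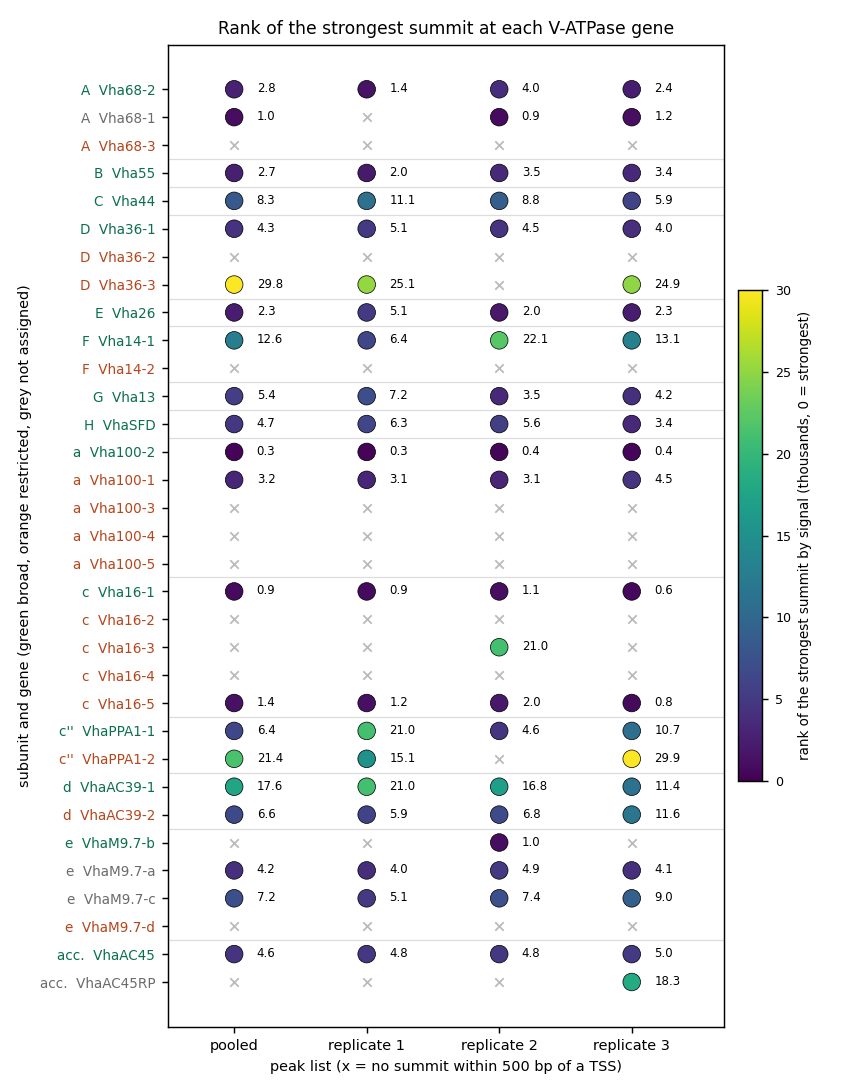
Rank by signal (printed divided by 1000) of the strongest summit within 500 bp of a TSS for each Vha gene (rows, by subunit) in the pooled list and the 3 replicate lists (columns). Darker circles are stronger peaks, and crosses mark genes with no summit; the 9 restricted genes named in the text have crosses in all 4 columns.

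Signal differed widely among the bound members. The strongest summit at a bound Vha gene had a median signal of 453 in the IDR-thresholded list (range 234 to 2077), and over all 4801 bound genes the median was 562 (range 227 to 8433). Vha genes were thus bound more often than genes in general, but with a median signal below that of bound genes in general. The highest, Vha100-2, stood at the 93.7th percentile of bound genes, and the lowest, Vha44, at the 1.52nd. Of the 17 bound genes 12 had a summit among the strongest 8522 peaks of all 3 replicates, 3 of 2 replicates (Vha68-1, VhaAC39-2 and VhaM9.7-c) and 2 of 1 replicate (Vha44 and VhaPPA1-1).

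**Figure D3:**
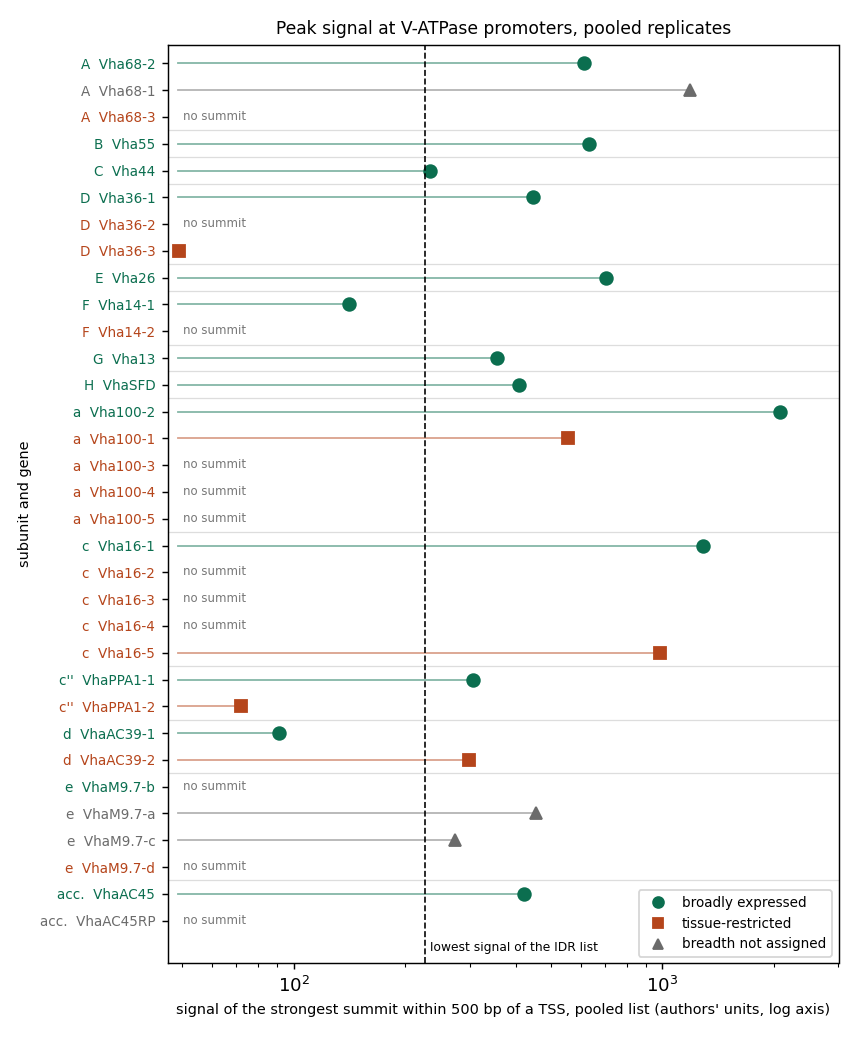
Signal of the strongest summit within 500 bp of a TSS in the pooled list (horizontal axis, log scale, authors' units) for each Vha gene (rows, by subunit). The dashed line is the lowest signal of the IDR-thresholded list, 227.2; the 17 bound genes lie to its right, and Vha14-1, VhaAC39-1, VhaPPA1-2 and Vha36-3 to its left.

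Among the V1 genes, 8 of 13 were bound. Subunit A, which binds and hydrolyses ATP, is encoded by Vha68-2, Vha68-1 and Vha68-3. At Vha68-2 (FBgn0263598) the signal was 614 in the IDR-thresholded list and 178, 275 and 168 in replicates 1, 2 and 3, where the summit ranked 1434, 3970 and 2428. Below, the ranks of a gene are given in the same order of replicates. Vha68-1 (FBgn0265262) had the higher signal, 1191, with 758 in replicate 2 (rank 913) and 262 in replicate 3 (rank 1167). In replicate 1 no peak lay there at all, and the nearest summit was 3467 bp away. Such a gap was rare, since only 11 of the 1000 strongest peaks of replicate 2 overlapped no peak of replicate 1. Vha68-3 (FBgn0032464), the restricted copy, had no summit in any list, although it starts 178 bp beyond the end of Vha68-2.

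The other subunit of the catalytic ring, B, has the single gene Vha55 (FBgn0005671), with a signal of 630 and ranks of 2036, 3466 and 3410. Subunit C, which helps to hold the sectors together, is encoded by Vha44 (FBgn0287825). Its signal of 234 was the lowest of the bound members, and only in replicate 3 was it among the strongest 8522 peaks (ranks 11087, 8791 and 5870). Vha44 therefore lay at the edge of the list.

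Subunit D forms the central stalk. Vha36-1 (FBgn0022097) was bound with a signal of 445 and ranked 5108, 4542 and 4046 in the replicates, and its restricted paralogues were not bound. Vha36-2 had no summit in any list. Vha36-3 had a pooled signal of 49.1, the rank 29779 of 30000, with ranks of 25114 in replicate 1 and 24882 in replicate 3 and no summit in replicate 2. Every list thus put Vha36-1 far above both paralogues.

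Subunits E and G make the outer stalks. Vha26 (FBgn0283535, subunit E) had a signal of 702, the highest among the broadly expressed V1 genes, and ranked 5101, 1985 and 2336. Vha13 (FBgn0283536, subunit G) had 357 and ranked 7249, 3451 and 4188. In replicate 1 both ranked lower than in the other replicates. VhaSFD (FBgn0027779, subunit H, which regulates the pump) had 409 and ranked 6281, 5618 and 3350. These genes have no paralogue among the members.

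Subunit F was the V1 subunit with no bound gene. At Vha14-1 (FBgn0262512), the broadly expressed gene, the pooled signal was 142, below the lowest signal of the IDR-thresholded list, and the summit ranked 6418, 22087 and 13105 in the replicates. The restricted Vha14-2 (FBgn0037402) had no summit within 500 bp in any list, with the nearest pooled summit 10030 bp away. In total 7 of the 8 broadly expressed V1 genes were bound and none of the 4 restricted V1 genes.

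The V0 sector held the 2 strongest peaks of the family, and also the exceptions to the order of classes. Subunit a, the largest, forms the half-channels through which protons pass, and its isoforms direct the pump to different membranes. Vha100-2 (FBgn0028670), the broadly expressed isoform, had the highest signal of all members, 2077. In the replicates its signal was 378, 1166 and 495, and it ranked 322, 366 and 352. All 3 replicates thus placed it among their strongest peaks. It is also the only Vha gene with 3 bound summits. The strongest lay within the gene, 304 bp upstream of the downstream TSS (peak chr3R:18397019-18397434). It was nearer to the TSS of a neighbour on the opposite strand, Vti1b, at 237 bp. The other summits of Vha100-2, with signals of 371 and 319, lay 210 and 418 bp upstream of its first TSS. Vha100-1 (FBgn0028671), the neuronal isoform, which acts at synapses, had a signal of 553 and ranked 3081, 3100 and 4476. Vha100-3, Vha100-4 and Vha100-5 had no summit at a TSS in any list. Vha100-4 starts 517 bp beyond the 3′ end of Vha100-2, on the same strand, and its TSS was 4024 bp from the nearest pooled summit.

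The c subunits form the proton-carrying ring. Vha16-1 (FBgn0262736), the broadly expressed gene, had a signal of 1292, the second highest of the family, with 234, 665 and 373 in the replicates (ranks 867, 1130 and 630). Of its restricted paralogues Vha16-5 (FBgn0032294) was bound nearly as strongly, with a signal of 984, and with 194, 467 and 333 in the replicates (ranks 1235, 1958 and 769). Vha16-2 and Vha16-4 had no summit in any list, and Vha16-3 had a weak summit in replicate 2 alone (rank 20993), while its nearest pooled summit was 526 bp away, just outside the 500 bp limit. In every replicate Vha16-1 ranked above Vha16-5, and both ranked above the other 3 genes. The related ring subunit c'' is encoded by VhaPPA1-1 (FBgn0028662), with a signal of 306. Its replicates were spread widely, at ranks 21036, 4587 and 10748. VhaPPA1-2, the restricted gene, lies 2052 bp from VhaPPA1-1 on the same strand. It had a pooled signal of 72.2 (rank 21443) and ranked 15119 in replicate 1. A separate peak of replicate 3 (rank 29918, summit 475 bp downstream of the TSS) overlapped neither the pooled peak nor that of replicate 1. In replicate 1 the summit of VhaPPA1-2 ranked above that of VhaPPA1-1, the reverse of the pooled order.

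Subunit d, which couples the stalk to the ring, went the other way. The restricted gene VhaAC39-2 (FBgn0039058) was bound with a signal of 298, and ranked 5868, 6794 and 11634. The broadly expressed gene VhaAC39-1 (FBgn0285910) had a pooled signal of 91.5 and ranked 21015, 16845 and 11364. The restricted gene ranked higher in replicates 1 and 2, and the genes stood close together in replicate 3.

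Subunit e is a small membrane protein with 4 genes. VhaM9.7-a (FBgn0035521) had a signal of 453 and ranked 3952, 4940 and 4077, and VhaM9.7-c (FBgn0028664) had 273 and ranked 5110, 7363 and 8985. VhaM9.7-d had no summit in any list. VhaM9.7-b (FBgn0028663), classed as the broadly expressed gene, was the most discordant member. In replicate 2 it had a summit 259 bp upstream of the TSS with a signal of 725 and a rank of 992, but no peak of replicate 1, replicate 3 or the pooled list overlapped it. Of the 1000 strongest peaks of replicate 2 only 3 overlapped no pooled peak. The nearest summits of the other lists lay 2860 to 2876 bp from the TSS.

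Of the accessory subunit genes, VhaAC45 (FBgn0262515), whose product helps to assemble the pump and guide it through the secretory pathway, had a signal of 422 and ranked 4799, 4840 and 5024. VhaAC45RP (FBgn0051030) had a summit in replicate 3 alone, at rank 18290. Across the 13 subunits of the pump itself, 8 have a restricted paralogue. In 3 of these (A, D and c'') the broadly expressed gene was bound and no restricted one, in 2 (a and c) both kinds were bound, in 1 (d) only a restricted gene, and in 2 (F and e) neither kind. All 5 subunits with a single gene were bound. Genes without a class are left out of these counts, though Vha68-1 of subunit A and VhaM9.7-a and VhaM9.7-c of subunit e were bound.

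The strongest summits of the bound genes lay upstream of a TSS, which at Vha100-2 is an internal one. That summit lay inside Vha100-2, and all 101 bases around it were in annotated exons. In all 17 bound genes the strongest summit was on the upstream side of the nearest TSS, between 35 and 304 bp away with a median of 147 bp, and among all bound genes 89.3% were upstream, with a median of 131 bp. Within 200 bp upstream lay 14 of the 17 summits, beside 62.5% of those of all bound genes. An upstream summit was thus the rule for bound genes in general. The replicates placed the summit closely at some genes, as at Vha36-1 (51 bp upstream in the IDR-thresholded list, and 54, 52 and 55 bp in the replicates). At Vha13 they did not. Its summit was 275 bp upstream, and 278 bp in replicate 2, but 61 bp in replicate 1 and 51 bp in replicate 3. At VhaPPA1-1 and VhaM9.7-c the summit of 1 replicate fell downstream of the TSS, by 26 bp in replicate 1 and 8 bp in replicate 3.

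**Figure D4:**
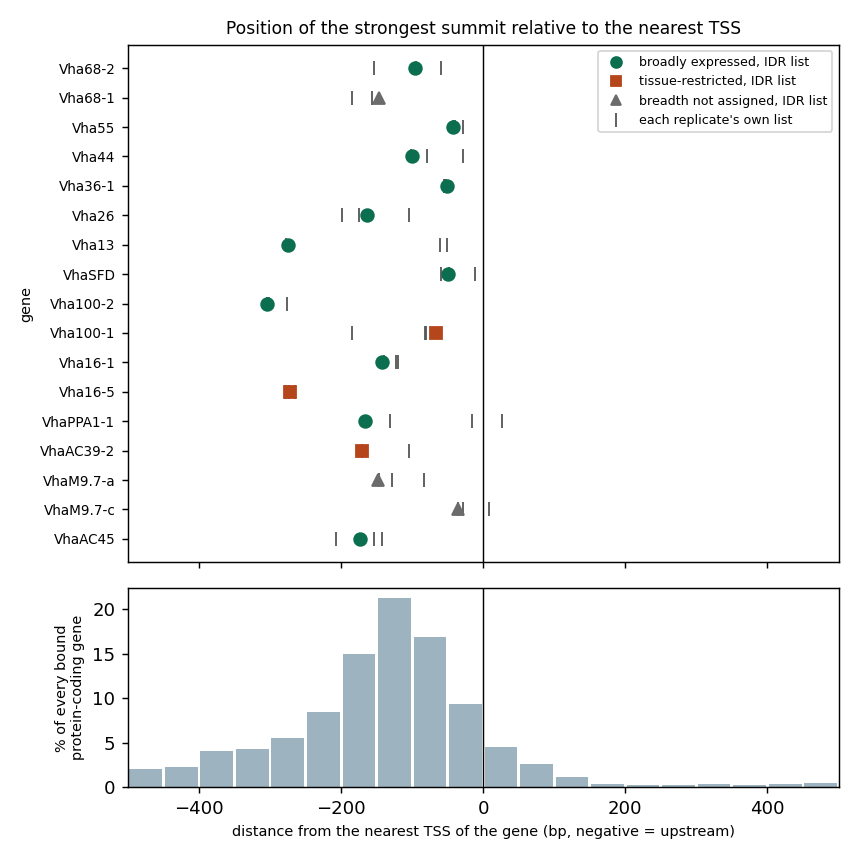
Distance in bp from the nearest TSS to the strongest summit (horizontal axis, negative upstream) for the 17 bound Vha genes (upper panel, coloured symbols for the IDR-thresholded list, grey ticks for each replicate's own list) and its distribution over all 4801 bound protein-coding genes in 50 bp bins (lower panel, percent). All 17 coloured symbols lie upstream, between 35 and 304 bp from the TSS.

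Many of these summits lay in promoters shared with a neighbour, as did those of bound genes in general. At 11 of the 17 bound genes (64.7%) the strongest summit was also within 500 bp of the TSS of another protein-coding gene. Among all bound genes the share was 57.9%. Each neighbour of the 11 was transcribed from the opposite strand, and 55.5% of all bound genes had such a neighbour. The partners had varied roles. Vha68-1 was paired with mTor, the kinase that the V-ATPase helps to activate at the lysosome, with the summit 147 bp from the TSS of Vha68-1 and 226 bp from that of mTor. Vha55 was paired with Snx3, a sorting nexin of endosomes (160 bp), Vha100-2 with Vti1b, a SNARE of endosomal fusion (237 bp), and VhaAC45 with Gnptab, named for the enzyme that tags lysosomal hydrolases in mammals (264 bp). The others were noi, a splicing factor, with Vha26 (141 bp), Hmgs, an enzyme of isoprenoid synthesis, with Vha44 (23 bp), Nup58, a nucleoporin, with Vha13 (365 bp), dgt6, a subunit of the augmin complex of the spindle, with Vha100-1 (155 bp), and CG8187, CG11586 and CG12299. Which gene of such a pair a summit belongs to cannot be told apart from position alone.

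The neighbour's TSS was the nearer at 6 of the 17 genes (35.3%), not far from the 28.2% of all bound genes. The strongest summit at Vha100-2, the highest signal of the family, was 237 bp from the TSS of Vti1b and 304 bp from that of Vha100-2. The summit at Vha44 was 23 bp from the TSS of Hmgs and 100 bp from its own, and that at Vha36-1 was 21 bp from CG8187 and 51 bp from its own. At Vha16-5, a restricted gene with a strong peak, the summit was 30 bp from the TSS of CG12299 and 272 bp from that of Vha16-5. The bound restricted gene Vha100-1 shares its promoter too, and VhaAC39-2 alone among the bound restricted genes had no other TSS within 500 bp of its summit.

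A close neighbour was more common among broadly expressed members. Another gene's TSS lay within 500 bp of a TSS of 8 of the 14 broadly expressed genes (57.1%) and 3 of the 15 restricted genes (20%), compared with 30.8% of all protein-coding genes. In general, 61.8% of genes with such a neighbour were bound and 22.2% of genes without. Among members without a close neighbour 5 of 6 broadly expressed genes were bound and 1 of 12 restricted genes, and among those with a neighbour 6 of 8 and 2 of 3. Several TSSs also give a gene more chances to be called. Among members with 1 TSS 6 of 9 broadly expressed and 2 of 12 restricted genes were bound, compared with 28.2% of all genes with 1 TSS. With only the 5′-most TSS of each gene counted, the same 17 members were bound (11 broadly expressed and 3 restricted), beside 32.1% of all genes.

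Sequences of 101 bases are shown for the genes of subunit A, a bound gene (Vha68-2), a bound gene whose window of 101 bases holds none of the words searched (Vha68-1) and the unbound restricted copy (Vha68-3). For the bound genes they are centred on the IDR-thresholded summit, and for Vha68-3 they are the bases just before the TSS. All are written 5′ to 3′ on the strand of the gene, from the Release 6 assembly, whose coordinates are those of dm6. The windows are chr2L:12974176-12974276 on the plus strand, chr2L:13004204-13004304 on the minus strand and chr2L:12978685-12978785 on the plus strand. Capitals mark CGATA, the short word of the boundary protein BEAF-32, and TATAAA, the word of the TATA box, on either strand.
Vha68-2: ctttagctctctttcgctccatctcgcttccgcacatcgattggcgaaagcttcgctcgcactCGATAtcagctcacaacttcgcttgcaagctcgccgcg
Vha68-1: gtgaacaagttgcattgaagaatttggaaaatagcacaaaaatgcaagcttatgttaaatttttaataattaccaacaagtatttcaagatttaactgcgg
Vha68-3: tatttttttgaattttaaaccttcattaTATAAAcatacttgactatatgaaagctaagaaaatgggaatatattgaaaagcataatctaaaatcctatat
The 2 bound windows differed in composition, with 44.6% A+T at Vha68-2 and 71.3% at Vha68-1, and the stretch before Vha68-3 had 79.2%.

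The next 5 windows are summits of other bound genes. They were chosen to show the words found and the restricted genes that were bound, apart from Vha16-5. They are VhaSFD (chr2L:16727825-16727925, minus strand), Vha26 (chr3R:5591550-5591650, plus strand), VhaM9.7-a (chr3L:4262507-4262607, plus strand), Vha100-1 (chr3R:29131077-29131177, plus strand) and VhaAC39-2 (chr3R:23159436-23159536, minus strand). Capitals mark TATCGATA, CGATA and TATAAA on either strand, and TATCGATA, the word of DREF and BEAF-32, holds CGATA on both strands.
VhaSFD: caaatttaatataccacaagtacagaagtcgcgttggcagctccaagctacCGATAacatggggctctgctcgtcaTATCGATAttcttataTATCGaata
Vha26: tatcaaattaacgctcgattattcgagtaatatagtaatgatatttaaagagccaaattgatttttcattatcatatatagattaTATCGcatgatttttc
VhaM9.7-a: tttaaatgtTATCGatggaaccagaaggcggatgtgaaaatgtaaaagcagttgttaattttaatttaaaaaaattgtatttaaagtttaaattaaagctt
Vha100-1: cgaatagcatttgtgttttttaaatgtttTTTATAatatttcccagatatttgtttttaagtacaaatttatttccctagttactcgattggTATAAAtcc
VhaAC39-2: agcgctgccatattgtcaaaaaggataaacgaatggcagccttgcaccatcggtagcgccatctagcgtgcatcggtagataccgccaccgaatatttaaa
VhaSFD had the full TATCGATA with 2 further CGATA words, Vha26 and VhaM9.7-a had 1 CGATA each, Vha100-1 had TATAAA on both sides of the summit, and VhaAC39-2 had none of the words searched. The window of Vha16-5, the bound restricted gene not shown, had 2 CGATA words.

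Among the 17 summit windows of 101 bases CGATA, on either strand, was found in 7, beside 16.4% of all 8522 windows. The 8522 windows are not limited to summits near a TSS, as the 17 are, so the sets are unlike. These were Vha68-2, Vha36-1, Vha26, VhaSFD, Vha16-5, VhaPPA1-1 and VhaM9.7-a. TATCGATA was in 1 window, that of VhaSFD (2.41% of all windows), and TATAAA in 2, those of Vha13 and Vha100-1 (26.2% of all). AAAATATT was in that of Vha13 alone (7.44% of all). None of the 17 windows held GGTCACACT, the word of the core promoter factor M1BP (1.17% of all), CATCNCTA, known as Motif 7 (1.56%), or CACGTG, the E-box (0.657%). A match is a description of the letters and not a binding site.

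Promoters of 300 bases, from 250 before the 5′-most TSS to 50 from it on, were searched for the same words on both strands. CGATA was in 11 of the 14 broadly expressed and 6 of the 15 restricted promoters, beside 47.3% of all 13968. TATAAA was in 6 of the 14 and 9 of the 15, beside 45.8%. The restricted share for CGATA and the broadly expressed share for TATAAA lay near those of all promoters, and no difference was tested. TATCGATA was in the promoters of VhaSFD and Vha55 and in no restricted one (9.36% of all), and GGTCACACT in those of Vha68-2, Vha26 and the neuronal Vha100-1 (6.04%). The promoter of Vha68-1, whose summit window held none of the words, held CGATA and TATAAA, and also Motif 7. In Drosophila the factor Mitf acts on V-ATPase genes through an extended E-box. Of the 33 promoters 1, that of Vha44, held TCACGTGA (0.172% of all), and CACGTG was also in those of VhaM9.7-d and VhaAC45RP (4.20% of all).

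The summit windows of Vha genes had a lower median A+T content than those of the whole list. Their median was 62.4% (range 33.7% to 76.2%) and that of all 8522 windows 70.3% (quartiles 63.4% and 75.2%). The sets are unlike, since the whole list is not limited to summits near a TSS. The lower value can therefore not be read as a trait of Vha genes. The lowest was at Vha44, which also had the lowest signal. Promoters of the broadly expressed genes had a median of 61.0% A+T and those of the restricted genes 65.3%, beside 62.0% for all promoters.

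Genes that work with the pump were bound to a varied extent. Of the 4 genes found of the list for V-ATPase assembly and regulation 3 were bound, beside 34.4% of all protein-coding genes, namely mtd, a gene of the TLDc family that acts on the pump (signal 1503), ATP6AP2, an accessory subunit whose older symbol is VhaM8.9 (940), and Rbcn-3A, a subunit of the assembly factor rabconnectin (623). Its partner gene Rbcn-3B was not bound. Of 26 genes of the lysosome and of TORC1, the growth kinase complex at its surface, 14 were bound, or 53.8% beside the same 34.4%, led by Lamtor3, a part of the Ragulator scaffold on which the V-ATPase acts (3391), mTor (1191, by the summit it shares with Vha68-1) and car, a subunit of the HOPS tethering complex (1035). Mitf, the factor named above, was not bound.

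The genes named for mitochondrial ATP synthase, the rotary enzyme most like the V-ATPase, showed a like division by name. Any gene of the enzyme with another kind of symbol was not counted. Of 15 genes whose symbol starts with ATPsyn 11 were bound, or 73.3% beside 34.4% of all protein-coding genes, led by ATPsynE (726), ATPsynCF6 (635) and ATPsyngamma (613). All 11 genes without the suffix L were bound, and none of the 4 with it (ATPsynGL, ATPsynCF6L, ATPsynbetaL and ATPsynepsilonL), a suffix that marks a copy like the named gene. The strongest of them had a signal below that of Vha100-2, Vha16-1, Vha68-1 and Vha16-5. The split by suffix was noticed after the values were seen.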

How the data were processed

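The members, classes and lists were chosen with earlier results of these data known. Per the deposited file lists, peaks were called by the authors for each of 3 replicates against 1 shared control, and on the pooled alignments, and thresholded by IDR, all on dm6. Not given in the sources used here are the aligner, the caller and their settings. The deposited signal is the authors' peak strength, its scaling not given, so values are compared by rank between lists. Deposited summit offsets, in bp from the peak start, are positions and no measure of strength. Replicate and pooled lists hold 30000 peaks each, of which 22 of replicate 1 lay off the arms and were left out of its ranks. The IDR-thresholded 8522 are the strongest pooled peaks, and are not independent of the replicates. Read depth is unknown. The labels call the replicates biological and give no collection dates.

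Summits (peak start plus offset) were set against every TSS of Ensembl release 115 protein-coding genes, whose arms and coordinates are those of dm6. For several summits the strongest was used, and distances were taken to the nearest TSS. All 33 Vha genes are named. Sequence came from RefSeq's Release 6 assembly. Symbols Tor, CtsB1, Cp1 and Vps41 of the lysosome list were read as mTor, CtsB, CtsL1 and lt, so its 28 symbols stood for 26 genes, with CtsL1 and lt listed under both symbols. Vma21 and Vma12 of the assembly list matched no gene. Assignment and overlap (at least 1 bp) were checked on peaks placed at known distances. A planned comparison of protein sequences was not made, since no protein table was used here. Versions were Python 3.11.15, pandas 2.3.3, numpy 2.4.6, pyfaidx 0.9.0.4 and matplotlib 3.10.9.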

Additional observations from a re-analysis of the deposited data

How the results depend on the processing

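The 17 bound genes (11 broadly expressed, 3 restricted) were recounted under other settings, the classes keeping their order in each. Within 100 bp of a TSS 7 were bound (5 and 1), beside 13.1% of all genes, and in the stronger 50% of peaks 9 (5 and 2), beside 21.4%. In the pooled list 5 restricted genes had a summit at a TSS, beside 52.1% of all genes. With the unclassed genes added to the restricted class 6 of 19 were bound, near the 34.4% of all genes. With each replicate left out, IDR-thresholded peaks that overlap a strongest peak of both others gave 12 to 14 genes, 9 in each case for the broadly expressed and 2 to 3 for the restricted, beside 27.3% to 28.9% of all genes. Vha44 and VhaPPA1-1 were lost in each of these. With each summit given to its single nearest TSS 12 remained, beside 26.0% of all genes, the lost being Vha16-5, Vha26, Vha36-1, Vha44 and VhaM9.7-a. A distance of 1000 bp added Vha14-1. Leaving out the 5 genes of less certain class, chosen after seeing the data, gave 11 of 13 and 2 of 11. The mean share of Vha genes over the replicates was 46.5%, 43.9% to 48.5% with each replicate left out, and 63.6% in the whole lists. The median signal was 445 for the summit nearest to a TSS. No paired analysis was possible because the labels give 1 group. Read depth is unknown, so a missing peak shows only that none was listed.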
